A study of Mus musculus with 82 samples.

Results

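The 10 genes described here are 9 genes of the circadian clock and its output, Per1, Per2, Per3, Cry1, Nr1d1, Nr1d2, Ciart, Dbp and Tef, and Klf9, a transcription factor that follows the clock and glucocorticoid hormone. They were chosen by name with group differences of their counts already known, and taken from the gene counts of 82 libraries of mouse right ear punches, in which 56941 genes were listed, and all 10 were counted in every library and tested in both tables. No single contrast was named as the source of the choice, so differences of these genes between groups are given below as a description, with no p value. All mice were female C57BL/6J Rj. Sham ears, whose treatment label reads vehicle, were set beside ears given a cream with 5% imiquimod, an agonist of the RNA sensor TLR7 that inflames the skin, and beside imiquimod ears of mice that drank IDOR-1117-2520, an inhibitor of the chemokine receptor CCR6. In the time course these 3 treatments were sampled at days 2, 5 and 8, with 6 libraries in each group and 4 in sham at day 5. In the start-day experiment sham, imiquimod, and imiquimod with the drug from day 0, day 3 or day 5 had 6 libraries each. Cream was applied daily from day 0 to day 7, and the drinking water protocol of the labels starts the drug at least a day before the first cream. Time labels of the 3 start-day drug groups read day 8, 5 and 3, which equal 8 less the start day, and a harvest day for them is not in the labels. The labels give no hour of harvest for any library and do not say whether each library is a separate animal, so every p value below measures the spread between these samples.

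The clock is a loop in which the proteins BMAL1 and CLOCK, or NPAS2 in place of CLOCK, bind E-box sequences and switch on the Per, Cry, Nr1d1, Nr1d2, Ciart, Dbp and Tef genes. PER, CRY and CIART proteins then repress BMAL1 and CLOCK, while the REV-ERB proteins made from Nr1d1 and Nr1d2 repress Bmal1, Npas2 and Nfil3. DBP and TEF drive D-box genes such as Per3, which NFIL3 represses at the same sites. In a tissue that keeps time, Bmal1, Npas2 and Nfil3 therefore peak away from Dbp, Nr1d1 and the Per genes, and a few hours of difference in harvest can move each of them. Per1 and Klf9 are also switched on directly by the glucocorticoid receptor, and the skin has a clock of this kind in keratinocytes, fibroblasts and hair follicles.

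Promoters of these genes are shown because E-boxes and D-boxes are the letters through which the loop acts. Windows of 250 bases before to 50 after a start site were taken from the RefSeq table of mouse build GRCm38.p6, which is not the GRCm39 build of the counts, and 9 of the 10 genes had an entry. The E-box was searched as CACGTG, the D-box as TTATGTAA and the glucocorticoid response element as AGAACA and TGTTCT with 3 bases between, on both strands. Of all 32851 windows, 7.15% held the E-box, 0.938% the D-box and 0.0091% the glucocorticoid element. Ciart held 3 E-boxes (first bases 116, 58 and 44 before the start, at -116, -58 and -44), and Per1 and Cry1 held 1 each (-166 and -60). The other window of Per1 held no E-box. Tef held 1 in each of its 2 windows (-127 and -138), of which the latter is printed. Per3 held 2 D-boxes (-205 and -158) and no E-box. The windows of Dbp, Nr1d1, Nr1d2 and Klf9 held none of these letters, which says nothing of elements outside them, and none of the windows of the 9 genes held the glucocorticoid element. The stretches before a start site, with exon bases left out, read as follows in the direction of transcription, with the motifs in capitals. Those of Tef and Per1 lie inside the span of their gene in the GENCODE M21 annotation, before a later start site.
Ciart, chr3:95882252-95882478, minus strand: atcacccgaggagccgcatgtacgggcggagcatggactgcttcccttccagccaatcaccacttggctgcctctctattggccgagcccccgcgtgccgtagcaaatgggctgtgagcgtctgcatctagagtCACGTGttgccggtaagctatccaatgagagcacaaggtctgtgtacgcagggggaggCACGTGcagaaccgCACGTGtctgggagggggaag
Per1, chr11:69098699-69098947, plus strand: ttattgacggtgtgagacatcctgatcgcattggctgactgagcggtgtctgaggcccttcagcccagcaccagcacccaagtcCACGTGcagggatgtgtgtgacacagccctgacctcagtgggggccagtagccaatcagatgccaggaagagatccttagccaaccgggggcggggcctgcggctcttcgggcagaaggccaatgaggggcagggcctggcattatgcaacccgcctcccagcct
Tef, chr15:81811164-81811413, plus strand: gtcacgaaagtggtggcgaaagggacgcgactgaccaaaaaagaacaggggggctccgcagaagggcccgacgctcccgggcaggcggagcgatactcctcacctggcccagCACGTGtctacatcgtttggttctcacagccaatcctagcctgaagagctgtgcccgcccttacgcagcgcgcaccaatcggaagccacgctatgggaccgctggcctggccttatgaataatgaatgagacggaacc
Cry1, chr10:85185065-85185304, minus strand: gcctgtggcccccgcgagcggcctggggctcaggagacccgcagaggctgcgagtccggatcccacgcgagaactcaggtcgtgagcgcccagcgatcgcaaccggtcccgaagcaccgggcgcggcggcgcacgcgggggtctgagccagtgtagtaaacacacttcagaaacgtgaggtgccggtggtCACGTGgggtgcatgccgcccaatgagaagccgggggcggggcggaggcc
Per3, chr4:151044666-151044915, minus strand: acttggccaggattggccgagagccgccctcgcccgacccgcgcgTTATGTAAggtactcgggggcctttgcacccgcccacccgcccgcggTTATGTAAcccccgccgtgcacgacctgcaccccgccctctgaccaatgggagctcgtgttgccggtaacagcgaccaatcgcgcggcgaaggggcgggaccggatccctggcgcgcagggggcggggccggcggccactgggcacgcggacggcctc

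The libraries held 13.1 M to 35.4 M counts over the days of the time course and 24.1 M to 35.5 M where the start day varied. The lowest count of any of the 10 genes in a library was 103, for Ciart, and the highest was 12496, for Nr1d1. Levels are given as counts per 1 M counts of the library (CPM), lowest, median and highest of a group, and compared only within a gene. Fold changes are log2 with their standard error from edgeR, and a gene was called at an adjusted p under 0.05 over all genes tested. Imiquimod library 11 of day 2 had the lowest total of all, 13.1 M. Libraries 9 and 11 of that group both lay below its other 4 for all of the 10 genes but Klf9, Per1 and Cry1. Dbp was 41.4 and 37.4 CPM there against 59.7 to 87.1 CPM, Per3 28.6 and 29.7 CPM against 42.4 to 59.1 CPM, and Tef 107 and 112 CPM against 141 to 185 CPM. Exons of Dbp overlap the antisense gene Sphk2 by 539 bases, those of Tef overlap Gm17597 by 193 and those of Nr1d1 overlap Thra by 263, in the GENCODE M21 annotation of GRCm38. The strand setting of the counting is not given in the sources used here, and reads in these stretches cannot be told apart.

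**Figure D1:**
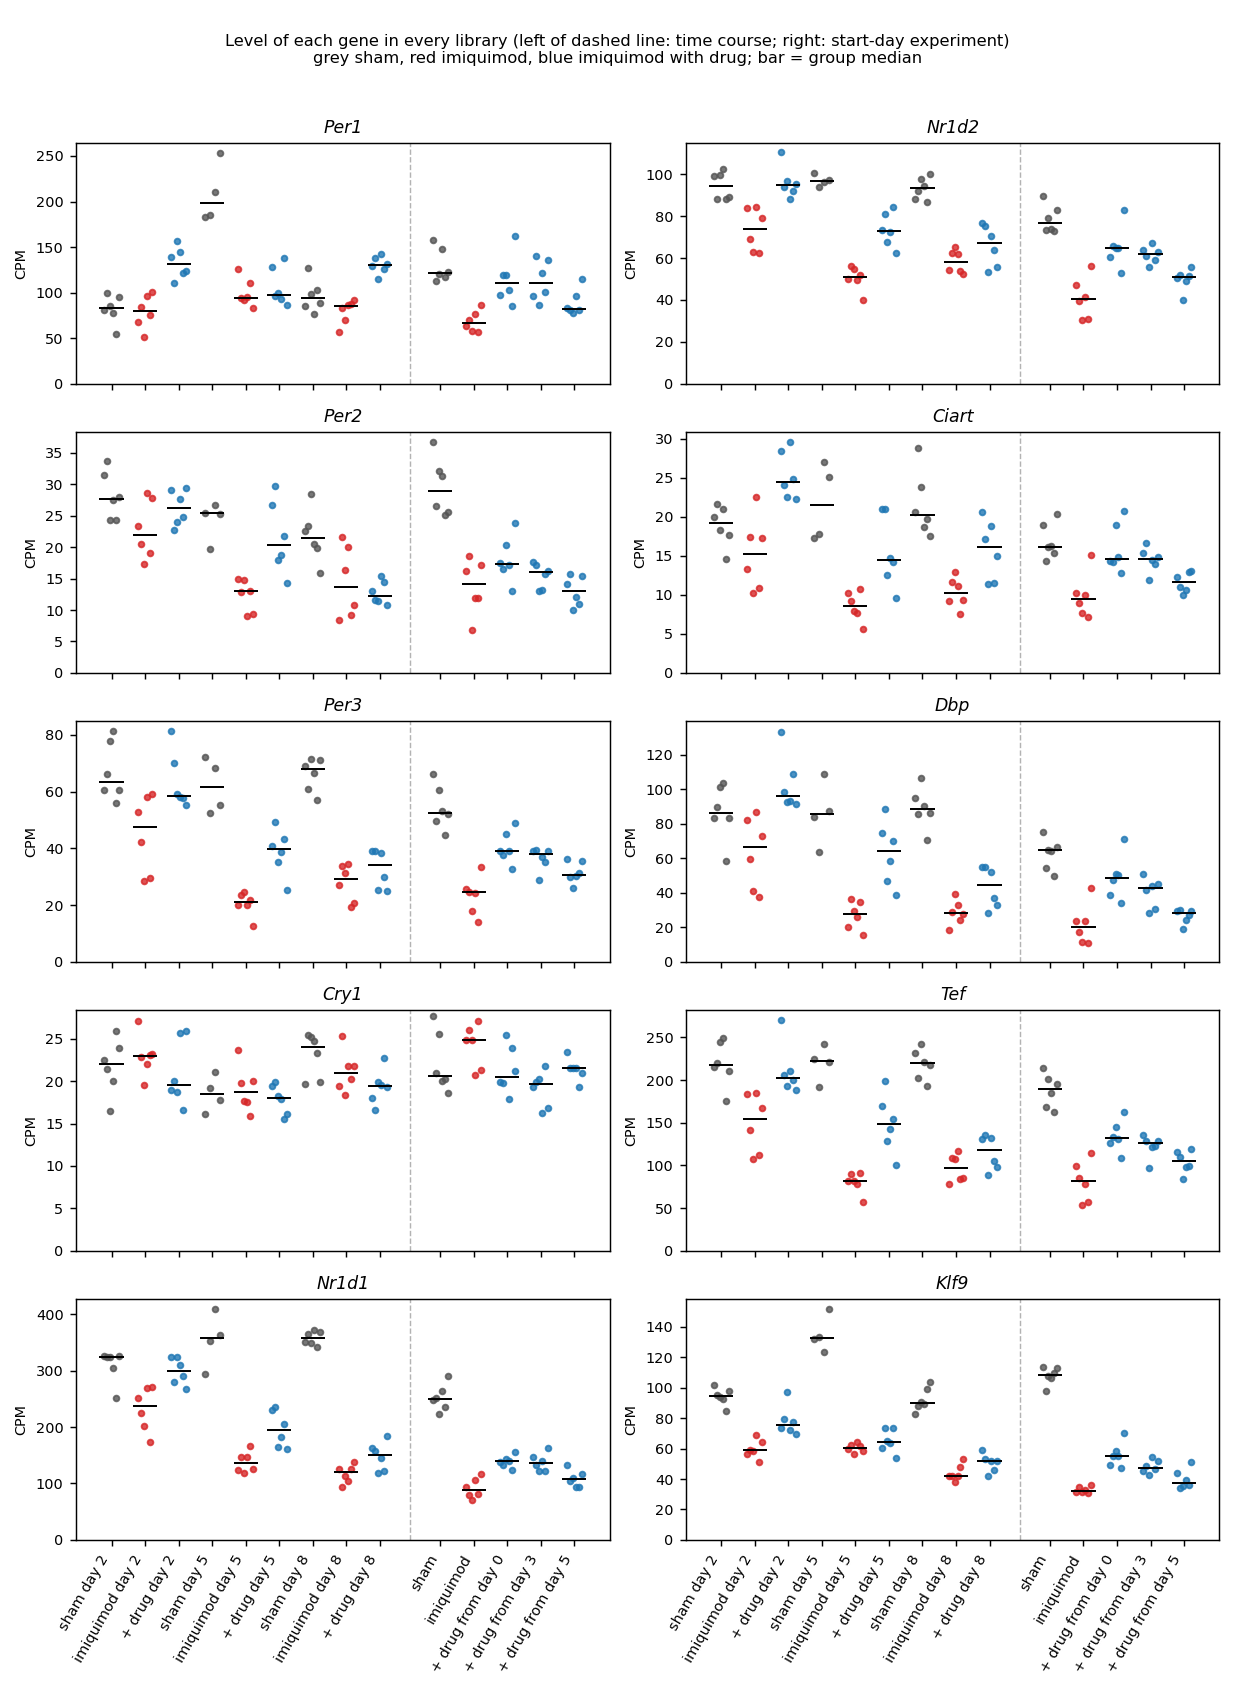
Level of each gene in every library, in CPM on an axis from 0, by group (grey sham, red imiquimod, blue imiquimod with drug; bars are medians; the dashed line parts the 2 experiments). Imiquimod ears at day 5 lay below every sham ear of that day for all genes but Cry1, and Per1 and Klf9 of sham ears at day 5 stood above all other groups of the time course.

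The 3 period genes did not share 1 course over the days. Per1, whose protein represses the clock and which the glucocorticoid receptor also switches on, was 54.9, 83.7 and 99.4 CPM in sham ears and 50.9, 80 and 101 CPM in imiquimod ears at day 2. The groups overlapped, and the difference was -0.06 ± 0.14. At day 5 the 4 sham ears read 183, 186, 210.3 and 254 CPM and the imiquimod ears 82.7, 94.7 and 126 CPM, a difference of -1.05 ± 0.16 without overlap. The imiquimod ears of day 5 were not below those of day 2, and the sham ears were the ones that stood high. At day 8 sham was back at 76.5, 93.7 and 127 CPM against 56.5, 85.1 and 91.9 CPM (-0.28 ± 0.14). Start-day sham ears read 112, 121 and 158 CPM and imiquimod ears 56.5, 66.9 and 86.1 CPM (-0.92 ± 0.15), again without overlap.

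Per2 and Per3 went another way over the days. Per2, the other main repressor of the family, was 24.3, 27.7 and 33.6 CPM in sham ears and 17.3, 22 and 28.6 CPM in imiquimod ears at day 2 (-0.31 ± 0.17). At day 5 it was 19.7, 25.4 and 26.7 CPM against 9.08, 13 and 14.9 CPM (-0.98 ± 0.19), with no overlap. By day 8 it was 15.9, 21.5 and 28.4 CPM against 8.37, 13.6 and 21.7 CPM (-0.59 ± 0.18), and the groups overlapped. Per3, an output more than a core part of the loop, was 52.4, 61.8 and 72.2 CPM in sham ears at day 5 and 12.5, 21 and 24.6 CPM in imiquimod ears (-1.60 ± 0.19). Its difference was -0.57 ± 0.17 at day 2, where ears overlapped, and -1.25 ± 0.17 at day 8, where they did not. With the start day varied, Per2 differed by -1.10 ± 0.18 and Per3 by -1.22 ± 0.14, both with all imiquimod ears below sham.

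Ciart, the repressor with 3 E-boxes in its window, had its largest difference at day 5 as well. Sham ears at day 5 held 17.3, 21.5 and 27 CPM and imiquimod ears 5.56, 8.59 and 10.8 CPM (-1.34 ± 0.20), all below sham. The difference was -0.30 ± 0.18 at day 2 and -1.07 ± 0.19 at day 8, and -0.78 ± 0.14 in the start-day experiment, where 1 imiquimod ear reached 15 CPM and overlapped sham. Cry1 stood apart from the other 9. Its levels were 16.5, 22 and 25.9 CPM in sham and 19.6, 22.9 and 27 CPM in imiquimod ears at day 2. They were 16.1, 18.5 and 21.1 CPM against 15.8, 18.7 and 23.7 CPM at day 5, and 19.7, 24 and 25.4 CPM against 18.4, 21 and 25.3 CPM at day 8. The differences were 0.08 ± 0.10, 0.04 ± 0.12 and -0.12 ± 0.10 by day, and 0.12 ± 0.09 in the start-day experiment, and the groups overlapped in all 4. Cry1 transcription is known to run later in the cycle than that of the other E-box genes.

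Nr1d1 and Nr1d2, the nuclear receptors that close the second loop, were lower in imiquimod ears on each day. Nr1d1 was 252, 324 and 326 CPM in sham and 174, 238 and 270 CPM in imiquimod ears at day 2 (-0.42 ± 0.11), with overlap from the lowest sham ear alone. It was 295, 357 and 409 CPM against 118, 136 and 167 CPM at day 5 (-1.36 ± 0.12), and 342, 358 and 371 CPM against 94.2, 119 and 137 CPM at day 8 (-1.62 ± 0.11). On these later days no imiquimod ear came near a sham ear. Nr1d2 was 88.1, 94.2 and 103 CPM in sham against 62.5, 74 and 84.3 CPM at day 2 (-0.36 ± 0.08). It was 93.7, 96.8 and 101 CPM against 40, 51 and 56.2 CPM at day 5 (-0.94 ± 0.09) and 86.7, 93.1 and 99.9 CPM against 52.3, 58 and 65.4 CPM at day 8 (-0.68 ± 0.08). All imiquimod ears lay below all sham ears on each of the 3 days. The start-day experiment gave -0.94 ± 0.12 for Nr1d2 and -1.46 ± 0.11 for Nr1d1.

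The output factors Dbp and Tef, with Per3, held the 3 largest differences of the list at day 5. Dbp was 58.4, 86.5 and 104 CPM in sham and 37.4, 66.4 and 87.1 CPM in imiquimod ears at day 2 (-0.45 ± 0.21), and the groups overlapped. It was 63.6, 85.5 and 109 CPM against 15.3, 27.8 and 36.3 CPM at day 5 (-1.66 ± 0.23), and 70.9, 88.4 and 106 CPM against 18.7, 28.2 and 39.5 CPM at day 8 (-1.64 ± 0.22). Sham levels of Dbp thus stayed in 1 range over the days, while the imiquimod ears were low from day 5. Imiquimod ears with the drug, at 28.6, 44.4 and 54.9 CPM, were also below all sham ears at day 8. Tef was 176, 218 and 249 CPM in sham against 107, 154 and 185 CPM at day 2 (-0.56 ± 0.14), 192, 223 and 242 CPM against 56.9, 81.9 and 90.8 CPM at day 5 (-1.46 ± 0.15), and 193, 219 and 242 CPM against 77.7, 96.5 and 117 CPM at day 8 (-1.17 ± 0.14). Start-day ears showed Dbp differing by -1.53 ± 0.24 and Tef by -1.20 ± 0.14, with every imiquimod ear below sham.

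Klf9 was lower in every imiquimod ear than in every sham ear of its day, already at day 2. KLF9 is a repressor that slows the division of keratinocytes and carries hormone and clock signals to its targets. Sham ears read 84.7, 94.4 and 102 CPM at day 2, 123, 133 and 152 CPM at day 5 and 82.6, 90 and 104 CPM at day 8. Imiquimod ears read 50.9, 59 and 69 CPM, then 56.3, 60.5 and 64.2 CPM, then 38.3, 42.2 and 53.3 CPM. The differences were -0.66 ± 0.08, -1.16 ± 0.09 and -1.06 ± 0.08. Sham ears of the start-day experiment held 97.9, 109 and 113 CPM and imiquimod ears 30.6, 32.1 and 36 CPM, a difference of -1.72 ± 0.09. That was the largest difference of Klf9 in any comparison with sham.

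Imiquimod against sham called 5 of the 10 genes lower at day 2, where 28.5% of all genes tested were called lower. It called 9 at day 5, where 35.9% were, 8 at day 8, where 33.6% were, and 9 in the start-day experiment, where 39.9% were. At day 2, Dbp was called as well without sham library 5 (-0.54), and Per3 was not called without imiquimod libraries 9 and 11 together (-0.34). Without overlap below sham stood 2, 9, 7 and 8 of the 10, beside 15.7%, 28%, 22.5% and 31.4% of all genes tested. None of the 10 was called higher, where 29.2%, 34.6%, 34.5% and 38.1% were. The median log2 difference of the 10 was -0.39, -1.25, -1.06 and -1.15, and that of all genes tested lay between -0.04 and -0.01. Between the days, the imiquimod difference was called unequal for 8 of the 10, all but Per2 and Cry1, where 33.4% of all genes tested were called. Between day 8 and the start-day experiment it was called unequal for Klf9 (-0.62 ± 0.12, start-day minus day 8 in a joint fit) and Per1 (-0.60 ± 0.21), where 21.4% were called. In bulk tissue, fewer cells of a type and less RNA per cell cannot be told apart. Several lists of marker genes moved with these differences. Skeletal muscle markers summed to 2720 to 3410 CPM in sham and 933 to 1630 CPM in imiquimod ears at day 5, cartilage markers to 638 to 791 against 286 to 356 CPM, and adipocyte markers to 148 to 204 against 44 to 73.6 CPM. Neutrophil markers summed to 3.15 to 5.61 against 4990 to 7400 CPM and keratinocyte markers to 22100 to 27800 against 42500 to 53700 CPM. Schwann cell markers summed to 745 to 975 against 287 to 347 CPM and macrophage markers to 150 to 197 against 367 to 645 CPM. Fibroblast markers (4700 to 6150 against 4310 to 5200 CPM) and endothelial markers (155 to 189 against 165 to 197 CPM) overlapped. No marker of these lists was at 0 throughout a group, and their part in the levels of the clock genes was not tested. Harvest hours that differed between treatments of a day cannot be told apart from treatment.

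**Figure D2:**
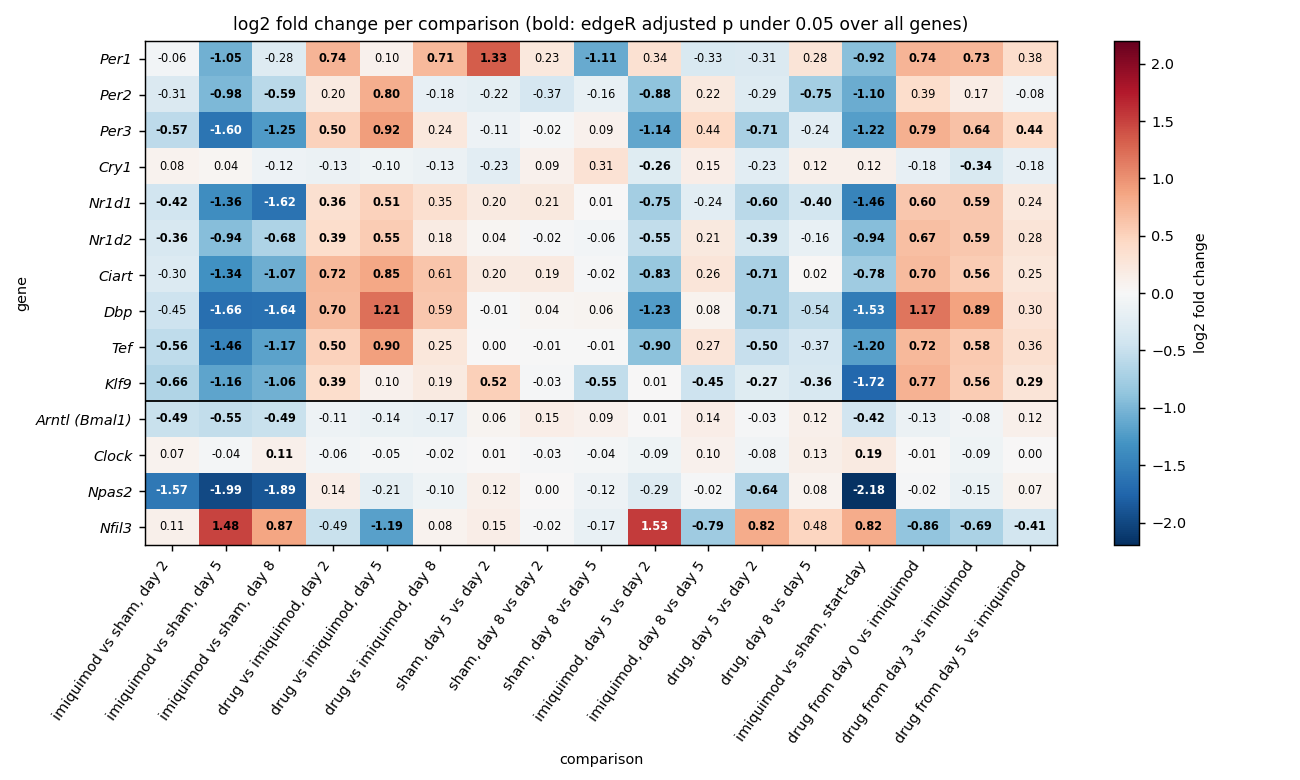
Heat map of log2 fold changes, with a row for each of the 10 genes and, under the line, for Arntl, Clock, Npas2 and Nfil3, and a column for each comparison (red higher, blue lower, numbers are the log2 values, bold those called). Dbp stands at -1.66 at day 5 against sham and at 1.21 with the drug on that day, while Cry1 lies between -0.12 and 0.12 in the comparisons with sham.

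The activator genes Bmal1 and Npas2 were lower in all 4 comparisons with sham, including day 2, where Per1, Per2, Dbp, Ciart and Cry1 were not called. Bmal1, named Arntl in the files, fell at day 2 (-0.49 ± 0.10, edgeR adjusted p 6.88e-05), day 5 (-0.55 ± 0.11, 3.63e-05) and day 8 (-0.49 ± 0.10, 5.01e-05) and in the start-day experiment (-0.42 ± 0.10, 0.000434). At day 5 its levels were 42.6, 48.2 and 56.8 CPM in sham and 27.8, 32.8 and 41 CPM in imiquimod ears, without overlap. Npas2, the partner that stands in for CLOCK, fell by 1.99 ± 0.18 on the log2 scale at day 5 (edgeR adjusted p 1.49e-13), from 23.5, 24.5 and 31.7 to 4.38, 6.39 and 9.62 CPM, and stood at -1.57 ± 0.17 at day 2, -1.89 ± 0.17 at day 8 and -2.18 ± 0.20 where the start day varied, all called. Clock did not pass at day 2 (0.07 ± 0.05, edgeR adjusted p 0.23) or day 5 (-0.04 ± 0.06, 0.573), and rose at day 8 (0.11 ± 0.05, 0.0458) and in the start-day experiment (0.19 ± 0.05, 0.000607). The call of day 8 was lost with RLE scaling, no filter, the 1 CPM filter, DESeq2 and the 2 groups alone. Nfil3, which competes with DBP and TEF, rose at day 5 (1.48 ± 0.22, edgeR adjusted p 9.68e-08) from 8.39, 10.2 and 10.7 to 21.9, 25.8 and 40.8 CPM, and at day 8 (0.87 ± 0.20, 0.000143), but not at day 2 (0.11 ± 0.20, 0.666). The imiquimod effect differed among days for Nfil3 (edgeR F test, adjusted p 0.00119) and not detectably for Bmal1 (0.942) or Npas2 (0.353).

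Of 16 other clock genes, 5 were higher and 11 lower at day 5, where 34.6% of all genes tested were called higher and 35.9% lower, so the count higher is near the share of all genes. Hlf, the third factor of the Dbp and Tef family, fell (-2.93 ± 0.20, edgeR adjusted p 2.55e-17). Cry2, the relative of Cry1, fell as well (-1.13 ± 0.10, 2.93e-14). Timeless, a gene also of DNA replication, rose (1.59 ± 0.12, 2.08e-16). Of 13 tested genes of the KLF family, 7 were higher and 4 lower at day 5 beside the same shares, and the count lower is near that of all genes. Among them stood Klf15, another glucocorticoid target, at -1.82 ± 0.15 (edgeR adjusted p 4.91e-15) and Klf10 at 1.07 ± 0.09 (2.02e-14). The glucocorticoid receptor gene Nr3c1 fell at day 5 (-1.06 ± 0.06, 1.53e-20).

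Sham ears alone were compared between days, since they had no imiquimod. Per1 was higher at day 5 than at day 2 in all ears, by 1.33 ± 0.16, and lower at day 8 than at day 5 by 1.11 ± 0.16 on the log2 scale. Klf9 moved with it, by 0.52 ± 0.09 and then -0.55 ± 0.09, with no overlap either time. None of the other 8 was called, and Dbp stood at -0.01 ± 0.23 and 0.06 ± 0.23, Tef at 0.00 ± 0.15 and -0.01 ± 0.15, Nr1d2 at 0.04 ± 0.09 and -0.06 ± 0.09 and Cry1 at -0.23 ± 0.12 and 0.31 ± 0.12. Called were 2 of the 10 at day 5 against day 2, where 0.17% of all genes tested were called higher, and the same count lower at day 8 against day 5, where 1.1% were. The shares of all genes without overlap in these directions were 1.57% and 2.3%. At day 8 against day 2, where 6.48% of genes were called in either direction, none of the 10 was called (Per1 0.23 ± 0.14, Klf9 -0.03 ± 0.08, Per2 -0.37 ± 0.17). DESeq2 called none there either, and edgeR with the 2 groups alone called 1, Nr1d1 (0.20), where it called 1334 genes in all. At day 5 against day 2, leaving out sham library 19, 20, 21 or 22 of day 5 in turn left both Per1 and Klf9 called, while the genes called in all went from 40 to between 10 and 104.

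Some glucocorticoid-induced genes passed the same tests in sham ears. Tsc22d3, which encodes the anti-inflammatory protein GILZ, rose at day 5 (1.08 ± 0.16, edgeR adjusted p 0.000144), from 106, 130 and 157 to 240, 282 and 306 CPM, and fell at day 8 (-1.12 ± 0.16, 3.33e-05). Fkbp5, a chaperone of the glucocorticoid receptor, did not pass at day 5 (0.56 ± 0.14) and fell at day 8 (-0.65 ± 0.14, edgeR adjusted p 0.00622), as did Zbtb16 (-0.62 ± 0.17, 0.0442). Of the 16 genes in this list 2 rose at day 5 and 6 fell at day 8, where 0.17% and 1.1% of all genes tested did. None was called the other way, though 1 stood without overlap below at day 5 and 1 above at day 8. Over all lists 8 genes were called at day 8 against day 5, and 4 without sham library 19, 20, 21 or 22 of day 5, whichever was left out, with Zbtb16 among those lost each time. The cell cycle kinase Wee1, a clock output in liver, rose (0.68 ± 0.08, 7.77e-07) and fell (-0.85 ± 0.08, 1.79e-09) with them. Bmal1 (0.06 ± 0.11, adjusted p 0.938), Npas2 (0.12 ± 0.18, 0.903) and Nfil3 (0.15 ± 0.22, 0.901) showed no detectable difference between sham ears of days 5 and 2. The ranges of all 9 marker lists overlapped between those 2 groups. Between days 8 and 5, those of 8 lists overlapped, and Schwann cell markers summed to 993 to 1220 CPM at day 8 against 745 to 975 CPM at day 5, whose part was not tested. An hour of harvest that differed between days cannot be told apart from the day itself.

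**Figure D3:**
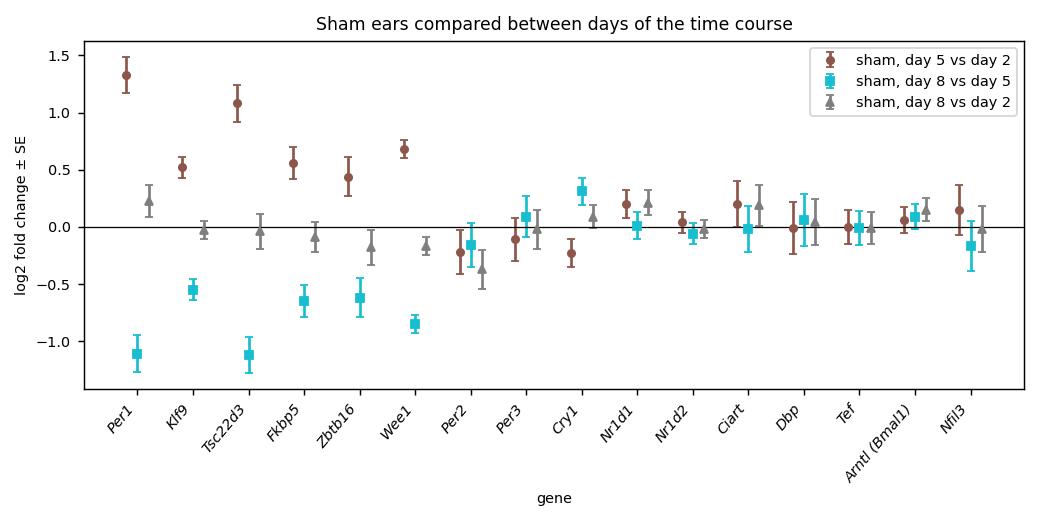
Log2 fold changes with standard errors between sham ears of different days, for the 10 genes and for Tsc22d3, Fkbp5, Zbtb16, Wee1, Arntl and Nfil3. Per1 stands at 1.33 and Tsc22d3 at 1.08 for day 5 against day 2, and Dbp and Tef stand near 0 in all 3 comparisons.

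Imiquimod and drug ears were compared between days in the same way. From day 2 to day 5 Dbp stood at -1.23 ± 0.22, Per3 at -1.14 ± 0.18, Tef at -0.90 ± 0.14, Per2 at -0.88 ± 0.18, Nr1d1 at -0.75 ± 0.11 and Nr1d2 at -0.55 ± 0.08, each with all day 5 ears below all day 2 ears. Ciart was at -0.83 ± 0.19 and Cry1 at -0.26 ± 0.10, with overlap. Klf9 (0.01 ± 0.08) and Per1 (0.34 ± 0.14), the 2 genes called in sham ears, were not called. Per1 was called higher with RLE scaling (0.36), the 1 CPM filter (0.34) and DESeq2 (0.36), and Cry1 lost its call with no filter (-0.27) and with DESeq2 (-0.25). Called lower were 8 of the 10, where 23.4% of all genes tested were, and 10.1% of all genes stood below without overlap. Markers moved over the same days without overlap. Skeletal muscle markers went from a range of 1970-2590 CPM at day 2 to one of 933-1630 CPM at day 5, adipocyte markers from 98.9-169 to 44-73.6 CPM and Schwann cell markers from 417-579 to 287-347 CPM. Neutrophil markers went from 147-2190 to 4990-7400 CPM, and those of keratinocytes, macrophages and endothelium were higher too. From day 5 to day 8 Klf9 alone was called (-0.45 ± 0.08), where 5.88% were called lower. Drug ears went from day 2 to day 5 by -0.71 ± 0.21 for Dbp, -0.71 ± 0.17 for Per3 and -0.71 ± 0.18 for Ciart, with 7 of the 10 called lower beside 19.1% of all genes. Schwann cell markers of drug ears lay lower at day 5, and those of neutrophils, macrophages and keratinocytes higher, without overlap. The part of these markers in either treatment was not tested. From day 5 to day 8 drug ears differed by -0.75 ± 0.18 for Per2, -0.40 ± 0.11 for Nr1d1 and -0.36 ± 0.08 for Klf9. There 3 were called lower beside 2.92%. With the 2 groups alone in the fit 1 was, and genes called in all went from 1037 to 206.

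The drug was compared with imiquimod alone on the same day. At day 2 Per1 read 110, 131 and 157 CPM with the drug, above all imiquimod ears (0.74 ± 0.14) and above all sham ears of that day. Dbp read 91.4, 96 and 133 CPM (0.70 ± 0.21) and Klf9 69.3, 75.4 and 97.4 CPM (0.39 ± 0.08), both above all imiquimod ears. Ciart, at 22.3, 24.5 and 29.6 CPM (0.72 ± 0.18), overlapped at 1 ear. Called higher were 8 of the 10, all but Per2 and Cry1, where 6.9% of all genes tested were called higher, and 5 stood without overlap, where 0.964% did. Fewer were called with 1 library left out, among the 10 and among all genes. Without imiquimod library 9 there were 4, without library 11 there were 5 and without drug library 13 there were 5. Genes called in all, in either direction, went from 3100 to 1416, 1740 and 1766 in that order. Without libraries 9 and 11 together, a choice made after seeing the data, none of the 10 was called and 7 genes in all were. With the 2 groups alone in the fit, edgeR called 0 of 16355 genes, with 4612 at an unadjusted p under 0.05, while DESeq2 with all groups called 3524. Neutrophil markers summed to 147 to 2190 CPM in imiquimod ears and 36.9 to 197 CPM in drug ears of day 2, and their part was not tested.

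At day 5 the median of the drug ears lay between those of imiquimod and sham ears for all of the list but Cry1. Drug ears overlapped sham ears of that day for Dbp, Tef, Per2 and Ciart. Dbp read 38.9, 64.3 and 88.3 CPM, above all imiquimod ears (1.21 ± 0.22). Tef read 100, 149 and 199 CPM (0.90 ± 0.14), Per3 25.2, 39.9 and 49.4 CPM (0.92 ± 0.18) and Nr1d2 62.6, 72.9 and 84.2 CPM (0.55 ± 0.08), each above all imiquimod ears. Per2 was at 0.80 ± 0.18, Ciart at 0.85 ± 0.19 and Nr1d1 at 0.51 ± 0.11, with overlap. Klf9 (0.10 ± 0.08), Per1 (0.10 ± 0.14) and Cry1 (-0.10 ± 0.10) were not called. Called higher were 7 of the 10, where 18.3% of all genes tested were, and 4 stood without overlap, where 5.07% did. Nfil3 fell with the drug at day 5 (-1.19 ± 0.19, edgeR adjusted p 4.95e-06), to 6.44, 12.3 and 19.6 CPM, below all imiquimod ears. Bmal1 (-0.14 ± 0.10, 0.295) and Npas2 (-0.21 ± 0.18, 0.379) did not pass there, and the drug ears held 27.3, 30.4 and 33.2 CPM of Bmal1. Neutrophil markers summed to 337 to 4530 CPM in these drug ears and fibroblast markers to 3250 to 4070 CPM, both below all imiquimod ears. Adipocyte markers (80.7 to 144 CPM) and Schwann cell markers (385 to 523 CPM) lay above them, and the part of these lists was not tested.

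At day 8 Per1 alone was called, where 1.22% of all genes were called higher. It read 115, 130 and 143 CPM with the drug against 56.5, 85.1 and 91.9 CPM (0.71 ± 0.14), without overlap, as 1.04% of all genes did, and above the sham median of 93.7 CPM. Ciart stood at 0.61 ± 0.19, Dbp at 0.59 ± 0.22, Nr1d1 at 0.35 ± 0.11 and Per2 at -0.18 ± 0.18. DESeq2 called 3 of the 10, with Nr1d1 and Ciart beside Per1. In either direction DESeq2 called 523 genes in all there and edgeR 293. Tsc22d3 rose as Per1 did (0.60 ± 0.15, edgeR adjusted p 0.0295), a call lost without the filter on low counts (0.61). The drug difference was called unequal among days for Per1 and Per2, where 7.99% of all genes tested were called, and for neither without the filter on low counts. For Per1 it was 0.74, 0.10 and 0.71 in day order, lowest at day 5, and for Per2 0.20, 0.80 and -0.18, highest at day 5.

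In the start-day experiment the 3 drug groups share their imiquimod ears, so their differences are given side by side only. From day 0, Klf9 read 47, 55.3 and 70.4 CPM (0.77 ± 0.09) and Nr1d1 123, 139 and 155 CPM (0.60 ± 0.10), above all imiquimod ears. Dbp read 34.2, 48.8 and 71 CPM (1.17 ± 0.24), Per1 85.2, 111 and 162 CPM (0.74 ± 0.15) and Ciart 12.8, 14.6 and 20.8 CPM (0.70 ± 0.14), with overlap. From day 3, Klf9 read 42.8, 47.5 and 54.3 CPM (0.56 ± 0.09), Per1 87, 111 and 140 CPM (0.73 ± 0.15) and Nr1d1 122, 136 and 162 CPM (0.59 ± 0.10), all above imiquimod. Cry1 was lower there (-0.34 ± 0.09), the 1 comparison of the 6 between drug and imiquimod in which it was called. From day 5, Klf9 read 34.2, 37.5 and 51.2 CPM (0.29 ± 0.09) and Per3 26.1, 30.8 and 36.2 CPM (0.44 ± 0.15), while Dbp was 19.3, 28.5 and 30 CPM (0.30 ± 0.25). Called higher were 8, 8 and 2 of the 10, where 18.2%, 18% and 15% of all genes tested were, and 1, Cry1, was called lower from day 3, where 16.4% were. Above all imiquimod ears stood 2, 3 and 0 of the 10, beside 8.22%, 8.11% and 5.32% of all genes. All ears with the drug stayed below all sham ears for Klf9 and Nr1d1 at each start day. Markers moved here as well. From day 0, neutrophil markers summed to 2060 to 4720 CPM against 7140 to 9560 CPM with imiquimod alone, skeletal muscle markers to 1110 to 1370 against 695 to 899 CPM, and cartilage markers to 253 to 308 against 201 to 233 CPM. From days 3 and 5 neutrophil markers (3530 to 5050 and 1890 to 6040 CPM) were again below and cartilage markers (263 to 324 and 271 to 301 CPM) above all imiquimod ears, while muscle markers overlapped. From day 0 macrophage markers were also lower and Schwann cell markers higher, from day 3 adipocyte and Schwann cell markers higher, and from day 5 keratinocyte markers higher. The part of these lists was not tested. Nfil3 fell from day 0 (-0.86 ± 0.13, edgeR adjusted p 9.31e-06), day 3 (-0.69 ± 0.13, 0.000125) and day 5 (-0.41 ± 0.13, 0.0175, not called without the filter on low counts), and Bmal1, Clock and Npas2 did not pass in any of the 3.

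The ears of a group also differed among themselves, and the genes moved together there. This was measured as each ear's deviation from its group mean in log2 CPM over all 82 libraries, which takes out treatment and day, and tested by permuting deviations within groups in 16 pairs of genes. Dbp and Tef gave r = 0.93 (Spearman 0.91, adjusted permutation p 2.29e-05), Dbp and Per3 r = 0.86 (0.84) and Dbp and Ciart r = 0.79 (0.75), the latter pairs at the same adjusted p. Dbp and Nr1d1 gave r = 0.63 (0.60, 3.2e-05). Dbp and Bmal1 ran opposite, at r = -0.57 (-0.61, 2.29e-05), with -0.50 over the days and -0.67 in start-day ears. Nr1d1 and Nfil3 gave r = -0.55 (-0.50, 3.2e-05), and Nr1d1 and Bmal1 gave 0.05 (0.03, 0.751). An unadjusted p of 1e-05 was the smallest the permutations could give. Leaving out the 2 ears farthest from the median of the first gene moved r to 0.92, 0.84, 0.76, 0.60, -0.54, -0.53 and 0.08 in the order given.

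Klf9 and Per1 went together within groups at r = 0.57 (Spearman 0.58, adjusted permutation p 2.29e-05; 0.43 over the days and 0.79 in start-day ears, and 0.51 without the 2 farthest ears). Klf9 also followed Tsc22d3 (r = 0.53, rho 0.57, 3.2e-05; 0.48 without 2) and, less closely, Dbp (r = 0.41, rho 0.36, 0.000262; 0.38 without 2) and Fkbp5 (r = 0.29, rho 0.33, 0.00497; 0.30 without 2). Per1 followed Per2 (r = 0.50, rho 0.49, 2.29e-05; 0.46 without 2) and showed no relation to Fkbp5 that could be detected (r = 0.04, rho 0.07, 0.751; 0.06 without 2). Per2 and Per3 gave r = 0.66 (rho 0.67, 2.29e-05; 0.69 without 2) and Nr1d1 and Nr1d2 r = 0.46 (rho 0.42, 0.000813; 0.38 without 2). Nr1d1 and Cry1 stood at r = -0.23 (rho -0.22, 0.0491; -0.21 without 2), and the rank correlation did not pass (adjusted permutation p 0.0679). The ears of a group share a day, and an hour of harvest that differed among them was not tested. Ears of a group also differed in cell type markers. Neutrophil markers spanned 147 to 2190 CPM in imiquimod ears of day 2 and 337 to 4530 CPM in drug ears of day 5. The part of markers in these correlations was not tested, and the pairs were not set beside a background of other gene pairs.

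**Figure D4:**
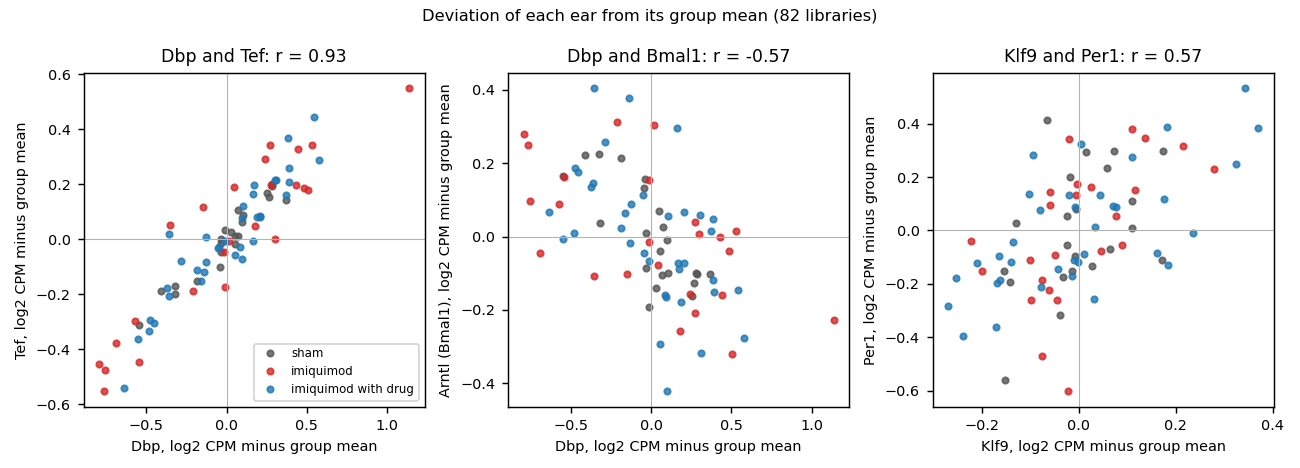
Deviation of each ear from its group mean in log2 CPM for 3 pairs of genes, 1 point per library, coloured by treatment. Dbp and Tef lie on a rising line (r = 0.93), Dbp and Bmal1 on a falling one (r = -0.57) and Klf9 and Per1 on a looser rising one (r = 0.57).

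Over all 82 libraries with the mean of each experiment taken out, the genes most like Klf9 among 13465 were Klf15 (Pearson r 0.94), Jade2 (0.93), the muscle genes Ankrd23 (0.93) and Lmod2 (0.93), and the cartilage gene Chad (0.92). Most like Dbp were Eef2k (0.91), its relative Hlf (0.90), the E-box repressor Bhlhe41 (0.89), Camkk1 (0.89) and Mycl (0.88). These correlations hold the differences between groups, which the libraries share, and within groups they were 0.54 for Klf15 and 0.55 for Lmod2 with Klf9, and 0.84 for Eef2k and 0.73 for Hlf with Dbp. In the order of its medians, Klf9 ran from imiquimod at day 8 (42.2 CPM) through imiquimod with the drug at day 8 (51.8 CPM) to sham at day 2 (94.4 CPM) and day 5 (133 CPM), and only the last step was free of overlap between neighbours. For Dbp, from imiquimod at day 5 (27.8 CPM) to the drug at day 2 (96 CPM), every neighbouring pair of groups overlapped. For Nr1d2 a step free of overlap lay just above imiquimod at day 2, at 74 CPM. All sham groups and the day 2 drug group lay above it. For Tef the imiquimod ears of day 2 (median 154 CPM) were free of overlap with their next neighbour, the drug at day 2. They reached 185 CPM, and drug ears of day 5 reached 199 CPM, while sham ears of day 2 began at 176 CPM.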

How the data were processed

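RNA from right ear punches, kept in RNAlater, was made into libraries with the Universal Plus mRNA kit from total RNA, per the labels' protocols. The deposited values are estimated counts by gene, from salmon according to the tables' names and on GRCm39, per the submitters' processing notes. Which salmon version, gene annotation, strand setting and trimming were used is not given in the sources used here. Column names matched the sample titles, leaving 0 unmatched, for all 82 libraries. No 2 libraries of a group were closer than sampling noise allows (lowest chi-square per gene 4.13).

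Counts were rounded, and each experiment was fitted apart with edgeR 4.0.16 (limma 3.58.1) in R 4.3.3. The filter was filterByExpr by group (18780 and 18434 genes left), the scaling TMM, and the test edgeR's robust quasi-likelihood F with every group of the experiment in the fit. P values were adjusted by Benjamini-Hochberg over all genes tested. Differences between days were F tests on contrasts of contrasts, and the start-day experiment was set beside day 8 in a joint fit of both tables (19455 genes), whose scaling differs slightly from the separate fits. Log2 CPM used a prior count of 2. Pairs of genes were tested by 100000 two-sided permutations within groups. The 10 genes and the lists (4 activator or night-phase genes, 16 other clock, 16 glucocorticoid-induced, 8 hormone receptor and enzyme and 14 KLF family genes, and cell type markers) were chosen with earlier results of these data known. Named were the 10 genes, all 4 activator-list genes, up to 4 called genes of another list by smallest adjusted p in a comparison, and the 5 genes most like Klf9 and Dbp whose mean log2 CPM was 1 or more. A gene that this rule would name is not reported here. Simulated data with 50 changed genes at each size served as a check. In the data 13224 of 18780 genes were called at day 5, so the simulation does not check scaling or false calls where most genes move. For imiquimod against sham at day 5, 82% of genes with a 1.5-fold change, 96% with 2-fold, 96% with 4-fold and 100% with 8-fold were recovered, with 4 false calls of 18384 tested.

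Alternatives were DESeq2 1.42.0, RLE scaling, no filter on low counts, at least 1 CPM in at least 4 libraries, only the 2 groups compared, a prior count of 5, each experiment alone for the pairs, and leaving out day 2 sham library 5, each day 5 sham library, imiquimod libraries 9 and 11 of day 2 or drug library 13 of day 2. Leaving out 9 and 11 together was added after seeing the data. Promoters came from the RefSeq table of GRCm38.p6 and gene overlaps from GENCODE M21. Figures were drawn with matplotlib 3.10.9.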

Additional observations from a re-analysis of the deposited data

Results flagged for a closer look

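Of 140 groups of values, each a gene in a group of 4 or 6 ears, 6 held an ear whose gap to its nearest neighbour was wide for the range of its group (Dixon's criterion at 95%), and chance alone marks about 1 in 20 groups. In sham ears of day 2, library 5 was lowest for Nr1d1, at 252.2 CPM. In imiquimod ears of day 5, library 30 was lowest for both Per3 (12.53 CPM) and Tef (56.88 CPM). In ears with the drug from day 3, library 21 was lowest for both Per3 (28.95 CPM) and Tef (96.62 CPM). In drug ears of day 2, library 13 was highest for Tef, at 270.7 CPM.

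The imiquimod difference was unequal among days 2, 5 and 8 by the F test for 8 of the 10 genes. The log2 fold changes spanned 0.50 for Klf9, 0.58 for Nr1d2, 0.90 for Tef, 0.99 for Per1, 1.03 for Per3, 1.04 for Ciart, 1.20 for Nr1d1 and 1.21 for Dbp. The drug difference was unequal among days for Per1, with a span of 0.64, and Per2, with a span of 0.98. Between the start-day experiment and day 8 of the time course the imiquimod difference was unequal for Klf9 (-0.62) and Per1 (-0.60). The genes were chosen with these data in view, so these tests describe them.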

How the results depend on the processing

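None of the log2 fold changes turned under an alternative where it was called. For the 10 genes 1066 fold changes kept their side of the threshold, 35 lost the call and 9 gained it. Of 14 pairs of genes called within groups, the count kept within 1.5 times under each alternative run. Called at day 2 with the drug against imiquimod were 8 of the 10 genes and 19 list genes, and both counts were 0 with the 2 groups alone in the fit and 0 without libraries 9 and 11 together. Leaving out 1 library of that comparison gave 4 to 5 of the 10 and 8 to 11 list genes where the count moved. Genes called in all went there from 3100 to between 1416 and 1766. Per3 and Dbp lost the call without library 9, 11 or 13, Tef without 9 or 13 and Nr1d1 without 9 or 11. With no filter on low counts, 1 of the 10 was called for the drug from day 5 (2 otherwise), 0 for the drug effect among days (2 otherwise) with 7 list genes, and 4 list genes for sham at day 8 against day 5 (8 otherwise, and 4 to 4 without 1 sham library of day 5). DESeq2 called 3 of the 10 for the drug at day 8 (1 by edgeR), with 523 genes called in all (293 by edgeR). With the 2 groups alone in the fit, 1 of the 10 (0 otherwise) and 4 list genes (1 otherwise) were called for sham at day 8 against day 2, and 1 of the 10 (3 otherwise) for the drug at day 8 against day 5. The cause of these moves was not tested. No paired analysis was possible because the groups compared within an experiment share no replicate numbers.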

Other observations

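Among 8 genes of hormone reception and activation, Dio2, which activates thyroid hormone, rose in imiquimod ears at day 2 (2.87 ± 0.25, edgeR adjusted p 1.88e-13), and Thra, a thyroid hormone receptor gene that overlaps Nr1d1, fell (-0.78 ± 0.07, 3.04e-13). Nr3c2, the mineralocorticoid receptor gene, fell at day 5 (-1.85 ± 0.15, 8.07e-16). In the start-day experiment, 8 of 16 glucocorticoid-induced genes fell and 7 rose, where 39.9% of all genes tested fell and 38.1% rose, so both counts are near the shares of all genes. Among them Zbtb16 (-2.30 ± 0.11, edgeR adjusted p 5.58e-19) and Fkbp5 (-1.08 ± 0.07, 2.24e-15) fell, while Nfkbia, which inflammation also induces, rose (1.25 ± 0.09, 1.01e-12). Of 14 KLF family genes there, 9 rose and 4 fell beside the same shares, with Klf15 at -2.64 ± 0.15 (1.07e-16) and Klf5 at 0.78 ± 0.04 (1.05e-17). Klf7 fell with the drug from day 0 (-0.78 ± 0.09, 4.52e-07), day 3 (-0.68 ± 0.09, 2.97e-06) and day 5 (-0.56 ± 0.09, 5.57e-05), in comparisons that share their imiquimod ears.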
